A study of Mus musculus with 6 samples.

Results

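Mouse genes whose symbol begins with Gm and a number are gene models that annotators predicted from the genome, and genes whose symbol ends in Rik were named after full-length cDNA clones from the RIKEN collections. Neither kind of name says anything about function. The peaks of N6-methyladenosine (m6A) described here are those whose gene carries such a name, Gm followed by a digit or an ending in Rik. They made up 3898 of 24127 peaks (16.2%), on 2803 of 13334 genes, in the comparison of the ClpP knockout with wild type. In the comparison of the ClpX knockout with wild type they made up 3565 of 23681 peaks (15.1%), on 2551 of 13085 genes.

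The study asked about mitochondria in spermatocytes that lack either subunit of the mitochondrial protease ClpXP: ClpP is the peptidase and ClpX the ATP-dependent unfoldase that feeds it. Male germ cells of mice at postnatal day 35, titled spermatocytes, came from 3 genotypes: wild type (WT), ClpP cKO and ClpX cKO, the conditional knockouts made by Cre recombinase under the Stra8 promoter, which is active in the germ line and not in the somatic cells of the testis. RNA captured by an m6A antibody (IP) and RNA before capture (input) were sequenced, 1 library of each per genotype, so the 6 libraries form 6 groups of 1 and no value has a replicate error. No level per library was used here; the authors' deposited table of each knockout against WT gives, per peak, the enrichment of IP over input as a fold, 1 value for all its libraries together, and a log2 fold change with an adjusted p for the difference between genotypes. These are called the authors' ClpP table and the authors' ClpX table below, and every fold enrichment, log2 fold change and adjusted p comes from them. Both comparisons use the same WT libraries. A peak is called where the adjusted p is under 0.05, and higher or lower means in the knockout relative to WT, a direction known only from the order in which the tables name the genotypes. Such a call compares libraries, not genotypes with their spread, and the sources used here do not say how library depths were balanced. Among 12 germ cell markers, 11 had a peak in the authors' ClpP table and 9 in the authors' ClpX table, against 4 of 5 Sertoli cell markers in both, 2 and 4 of 5 Leydig cell markers, 2 of 4 peritubular and endothelial markers in both, and 1 and 2 of 4 immune cell markers; the part of other cells in any result was not tested.

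m6A is written on nascent RNA by the METTL3 and METTL14 methyltransferase, mostly at adenosines within the sequence GGACT and close relatives of it, and is read by YTH-domain proteins that steer splicing, export, translation and decay. In mRNA the mark gathers near the stop codon and in long internal exons, and in male germ cells its writers and readers are needed for meiosis. Long noncoding RNAs (lncRNAs) carry it too. The testis transcribes more of the genome than most tissues, including pseudogenes, transcripts that run away from the start of a coding gene on the other strand, and repeats.

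Sequence was at hand only around annotated gene starts, in RefSeq windows from 250 bases before to 50 bases after a start on GRCm38.p6. The 7 sequences below are therefore peaks, or parts of peaks, that lie in such a window. They were picked after their values were seen, to show what a peak at a gene start reads like, 6 beside a coding gene on the other strand and 1 at the gene's own start. Each runs 5′ to 3′ along the strand of the peak, with GGAC in capitals. The first 3 are whole peaks: 1700069B07Rik at chr7:121707453-121707659 (+), upstream of the start of Usp31 on the other strand; Gm43221 at chr3:109000556-109000734 (+), around its own start; and the pseudogene Gm12184 at chr11:48825911-48826119 (-), upstream of Trim7 on the other strand. The other 4 are the parts of called peaks that lie before the start of a coding gene on the other strand: 2610306M01Rik at chr6:86849034-86849283 (-) beside Aak1, 4732416N19Rik at chr6:148212375-148212624 (+) beside Ergic2, 3110070M22Rik at chr13:119487836-119487999 (-) beside Tmem267, and Gm42918 at chr5:121385790-121385865 (+) beside Trafd1.
1700069B07Rik: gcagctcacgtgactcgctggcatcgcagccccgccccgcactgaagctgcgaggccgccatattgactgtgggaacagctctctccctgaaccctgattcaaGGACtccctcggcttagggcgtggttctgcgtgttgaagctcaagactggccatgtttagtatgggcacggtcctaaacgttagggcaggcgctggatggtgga
Gm43221: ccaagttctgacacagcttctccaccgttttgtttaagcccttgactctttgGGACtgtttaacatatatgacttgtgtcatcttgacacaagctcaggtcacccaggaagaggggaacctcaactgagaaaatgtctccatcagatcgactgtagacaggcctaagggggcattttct
Gm12184: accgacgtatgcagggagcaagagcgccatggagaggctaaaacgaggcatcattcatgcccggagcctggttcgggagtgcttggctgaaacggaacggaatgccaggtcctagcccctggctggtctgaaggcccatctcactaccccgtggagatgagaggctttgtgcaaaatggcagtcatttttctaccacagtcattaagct
2610306M01Rik: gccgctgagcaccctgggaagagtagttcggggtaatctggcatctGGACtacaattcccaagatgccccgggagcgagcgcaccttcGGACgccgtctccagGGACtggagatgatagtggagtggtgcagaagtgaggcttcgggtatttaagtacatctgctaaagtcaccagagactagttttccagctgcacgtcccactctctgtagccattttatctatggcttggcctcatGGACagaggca
4732416N19Rik: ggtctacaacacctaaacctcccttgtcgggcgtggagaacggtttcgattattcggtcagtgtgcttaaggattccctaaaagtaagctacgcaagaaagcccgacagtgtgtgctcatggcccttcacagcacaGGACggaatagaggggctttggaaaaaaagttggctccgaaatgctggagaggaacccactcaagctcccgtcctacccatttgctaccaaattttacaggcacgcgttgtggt
3110070M22Rik: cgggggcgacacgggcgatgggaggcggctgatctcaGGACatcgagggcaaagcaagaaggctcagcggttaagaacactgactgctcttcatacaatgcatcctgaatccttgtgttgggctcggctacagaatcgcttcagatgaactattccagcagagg
Gm42918: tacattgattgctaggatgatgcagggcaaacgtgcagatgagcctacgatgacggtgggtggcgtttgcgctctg
The stretch of 2610306M01Rik, 250 bases, held GGAC 4 times, of which 2 read GGACT. Of all start windows cut to the same length and read on the strand away from the gene, 59.5% held GGAC and 22.1% GGACT. The peak of 1700069B07Rik held 1 GGACT (18.9% of windows cut to its 207 bases) and that of Gm43221 held 1 (15.7% of windows cut to its 179 bases and read on the strand of their gene). 4732416N19Rik and 3110070M22Rik each held 1 GGAC without the following T (45.7% of windows cut to the 164 bases of 3110070M22Rik), and Gm12184 and Gm42918 held none (53.6% and 23.8% of windows). Only the strand of the peak was searched, GGACT was counted within GGAC, and a match marks letters, not a methylated base. Of all peaks of these genes that lay whole inside a window, 13 of 20 (65%) held GGAC in the authors' ClpP table and 17 of 28 (60.7%) in the authors' ClpX table; of the other genes' peaks it was 45 of 77 (58.4%) and 49 of 89 (55.1%).

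Fewer of these peaks were called than of the peaks on named genes. In the ClpP comparison 197 gained a higher call and 373 a lower one, together 14.6% (95% exact binomial interval 13.5 to 15.8), where 19.6% of all peaks were called, 6.74% higher and 12.8% lower. On all other genes the share was 20.5% (20 to 21.1). In the ClpX comparison 408 gained a higher call and 144 a lower one, together 15.5% (14.3 to 16.7), where 20.1% of all peaks were called, 15.1% higher and 5% lower, and 20.9% (20.3 to 21.4) on other genes. The intervals cover counting only and take each peak as independent, although peaks of 1 gene are linked. The direction of the calls was that of the tables as a whole: 34.6% of the called peaks were higher in ClpP cKO (all peaks 34.4%) and 73.9% in ClpX cKO (all peaks 75.1%). The median peak of the authors' ClpX table stood at a log2 fold change of 0.239. With that median subtracted from every peak, ClpX cKO had 306 higher and 391 lower calls among these peaks, 43.9% higher (all peaks 44.9%). In ClpP cKO the same step gave 40.9%. The step took each standard error from the log2 fold change and its p-value. No p-value of a difference exceeded 0.778. Peaks with a very small log2 fold change therefore got too small an error and were called too easily. How far the calls depend on the scaling of the libraries cannot be read from these counts. The median log2 fold change of these peaks was -0.023 in ClpP cKO (all peaks -0.034) and 0.038 in ClpX cKO.

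The peaks themselves were short, mostly single and well enriched. The median length was 265 bases in the authors' ClpP table against 329 on other genes, and 241 against 327 in the authors' ClpX table. Of the genes, 74.2% and 73.3% had 1 peak, where 48.5% and 49.3% of other genes did, and 79.8% and 80.2% of the peaks were a single block (68.5% and 71.2% on other genes). The median fold enrichment was higher than on other genes, 9.41 against 7.96 and 10.1 against 8.54. In spite of that enrichment the peaks rested on weaker evidence: when all peaks were put in 5 classes of equal size by the p-value of the peak, 27.6% (ClpP) and 26.1% (ClpX) of these peaks fell in the weakest class, against 18.5% and 18.9% of the other genes' peaks, and 13.1% and 13.8% in the strongest, against 21.3% and 21.1%.

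Within a class of support, the share called came close to that of other genes at the strong end. In the strongest class 48.2% (43.8 to 52.7) of these peaks were called in ClpP cKO, and 46.5% (45 to 48) of the others. In ClpX cKO it was 43.5% (39.1 to 48) and 42.6% (41.1 to 44.1). In the weakest class the shares were 1.58% against 3.74% in ClpP cKO and 2.36% against 4.05% in ClpX cKO, and in the middle class 11.3% against 16.2% and 16% against 17.3%. The lower share of calls over all these peaks thus went with their place in the weaker classes, and with lower shares inside the weaker classes. In the second weakest it was 6.72% against 9.02% in ClpP cKO and 6.49% against 9.57% in ClpX cKO, and in the second strongest 26.1% against 23.7% and 24.7% against 28.2%.

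**Figure D1:**
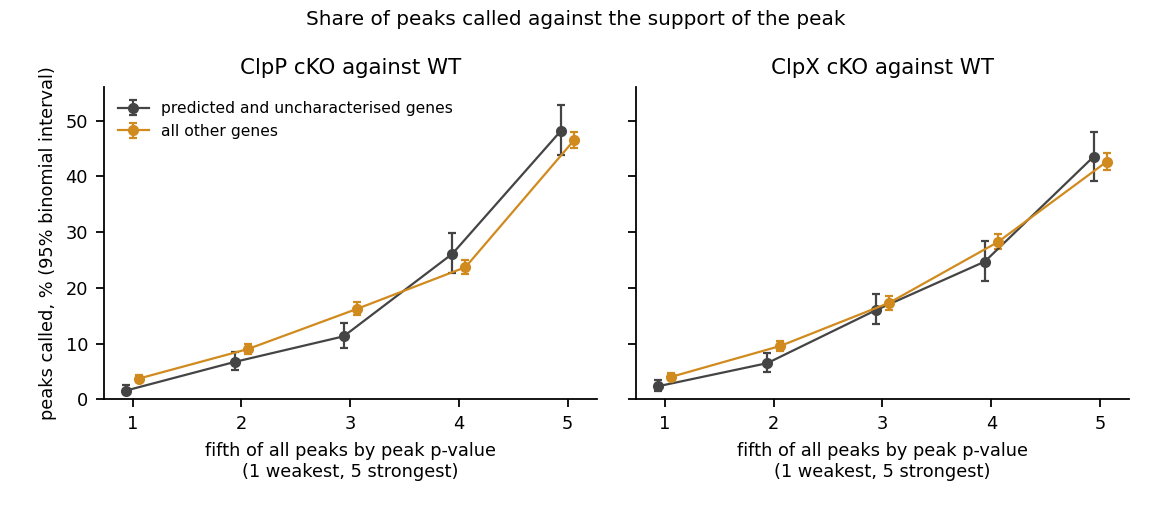
Share of peaks called (per cent, with 95% exact binomial intervals) in 5 classes of all peaks by the p-value of the peak, from weakest to strongest, for predicted and uncharacterised genes and for all other genes, in each comparison. In the strongest class the groups stand at 48.2% and 46.5% (ClpP) and at 43.5% and 42.6% (ClpX), with overlapping intervals.

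The difference in ClpX cKO varied with how enriched a peak was. From the least to the most enriched of 6 intervals, the median log2 fold change of these peaks was 1.0, 0.742, 0.275, -0.263, -0.421 and -0.468 in ClpX cKO, and in ClpP cKO it was 0.064, 0.077, -0.031, -0.068, -0.032 and -0.245. The other genes' peaks ran from 1.12 to -0.388 in ClpX cKO over the same intervals. In the least enriched interval, with a fold enrichment up to 2, ClpX cKO had 64 higher and 3 lower calls among 107 peaks; above 32 it had 3 higher and 14 lower among 121. The fold enrichment includes the knockout's own libraries, so the axes are not independent measures.

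**Figure D2:**
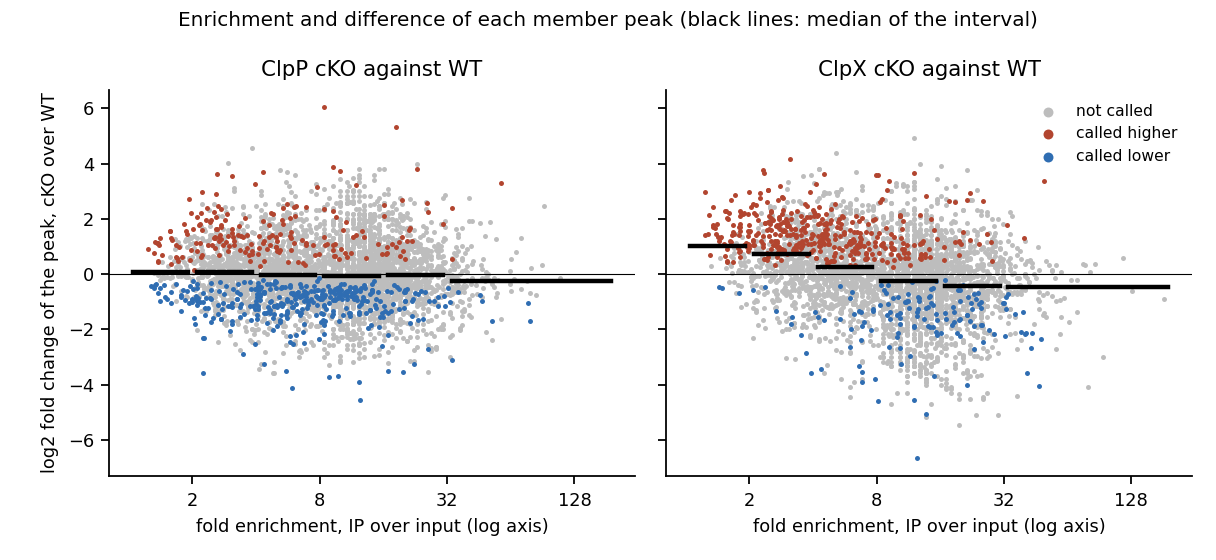
Fold enrichment of IP over input (log axis) against the log2 fold change of each peak on predicted and uncharacterised genes, 3898 peaks in the ClpP comparison and 3565 in the ClpX comparison, coloured by call; black lines are medians over intervals of enrichment. In the ClpX comparison the medians fall from 1.0 to -0.468, in the ClpP comparison from 0.064 to -0.245.

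What the genes are was taken from RefSeq. Of 3102 genes with such a name in either table, 2030 matched a RefSeq entry by symbol and 61 by synonym, and 1011 matched none. The entries were 926 lncRNAs, 692 pseudogenes, 449 protein coding genes, 12 miscellaneous RNAs and 6 small nuclear RNAs, with a few of other kinds. Peaks on pseudogenes, the decayed or processed copies of other genes, were called higher more often than lower in both knockouts, 75 higher and 54 lower of 763 in ClpP cKO and 129 higher and 22 lower of 692 in ClpX cKO, where 75.1% of all called peaks were higher too. Higher calls were thus 58.1% of the pseudogene calls in ClpP cKO, where they were 34.6% over all these peaks. In ClpX cKO they were 85.4%. Pseudogene peaks in the ClpP comparison had a median fold enrichment of 6.38, and 3.06 where called higher, against 9.41 over all these peaks. Weakly enriched peaks of other genes leaned to higher calls too. There 63.2% of the calls in ClpP cKO were higher at an enrichment up to 2. It was 52.4% from 2 to 4 and 19.5% from 8 to 16. Whether pseudogene peaks differ from other peaks of like enrichment was not tested. The pseudogene peaks under other names had 23 higher and 15 lower calls of 187 in ClpP cKO, 60.5% higher, and 36 and 11 of 177 in ClpX cKO, 76.6% higher. Peaks on lncRNAs had few calls, 28 higher and 103 lower of 1181 (11.1%) in ClpP cKO and 60 higher and 46 lower of 1041 (10.2%) in ClpX cKO, where their median log2 fold change was -0.222. Peaks on coding members were called about as often as those of named coding genes in ClpX cKO, 19.4% against 20.9%, with 100 higher and 31 lower of 677, and 45 higher and 99 lower of 741 in ClpP cKO. Genes without a RefSeq entry had 48 higher and 114 lower of 1182 in ClpP cKO, and 119 higher and 41 lower of 1120 in ClpX cKO. None of the 22 and 23 peaks on miscellaneous RNAs was called, where 19.6% and 20.1% of all peaks were. Many of them lay on 4932431P20Rik. Their median peak log10 p was -6.24 and -4.35, in the second weakest class of support. In that class 6.72% and 6.49% of the peaks on predicted and uncharacterised genes were called, so no call among so few says little. The tables describe a protein for some genes, by likeness to a known one. Peaks with such a protein description were called in 17.1% and 19.3% of cases and those without in 11% and 9.59%.

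**Figure D3:**
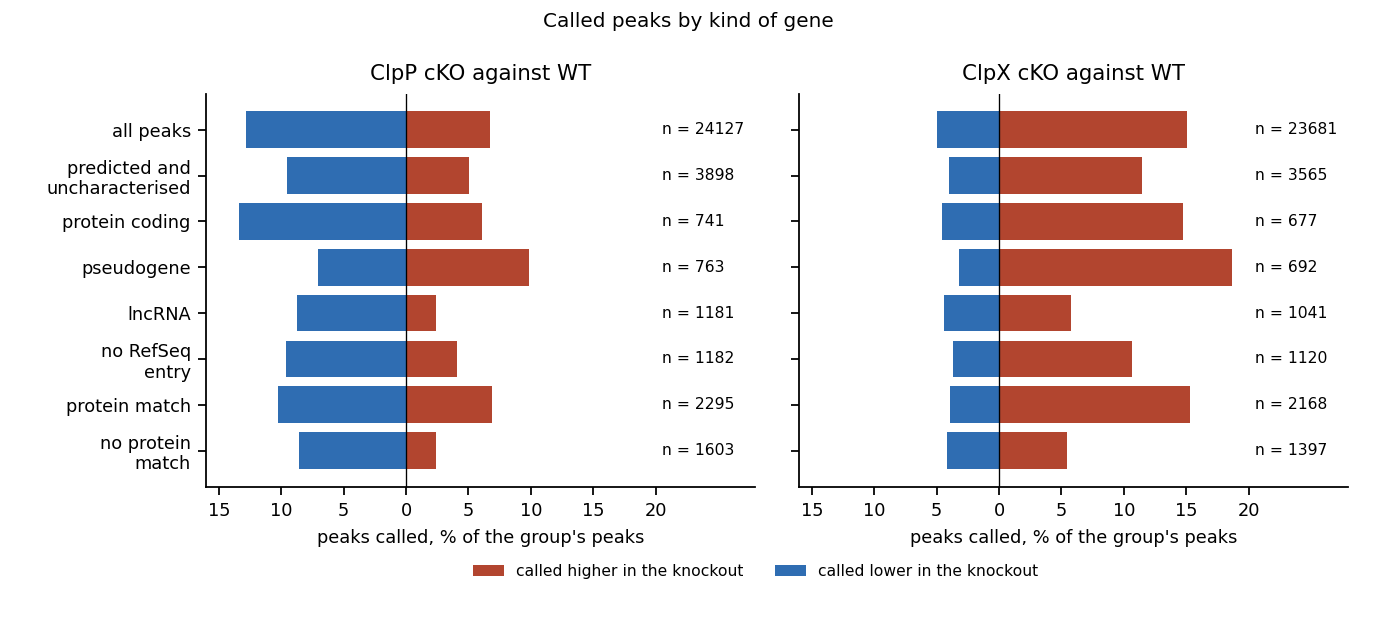
Peaks called higher (red, to the right) and lower (blue, to the left) as a percentage of the peaks of each kind of gene, in each comparison. Pseudogenes have more red than blue in the ClpP comparison, 75 against 54 peaks, and lncRNAs have 60 higher and 46 lower of 1041 peaks in the ClpX comparison. The kinds are not matched for enrichment.

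The peaks called higher in ClpP cKO with the smallest adjusted p lay mostly on pseudogenes. In the authors' ClpP table the first was Gm15720 at chr6:146463326-146463551, whose description is calmodulin, the calcium-binding regulator, with a log2 fold change of 1.05 and a log10 adjusted p of -22.6. Gm9892, a pseudogene of the translation initiation factor subunit eIF2 beta, stood at 1.30 in that authors' table, and Gm14681, on the X chromosome and described as nucleophosmin, a nucleolar chaperone, at 0.867. Both had a fold enrichment near 6 (5.82 and 5.85), where Gm15720 had 1.67. Gm4204, described as the histone chaperone NAP1L1, stood at 0.705, Gm10275, described as ribosomal protein L12, at 1.17 and 1.14 in 2 overlapping rows, and Gm10297, described as the kinase anchor GKAP1, at 0.475 in the authors' ClpP table. The lncRNA 1700108J01Rik, at 1.43, was the only one of these 8 rows not on a gene with a protein description.

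The peaks called lower in ClpP cKO were of more kinds. Gm10800 at chr2:98666547-98667301 fell by 1.01 on the log2 scale, with an adjusted p at the limit of what the authors' ClpP table records. Gm26917 at chr17:39844992-39845262, on a stretch of the assembly that holds a copy of the ribosomal RNA precursor gene, stood at -0.422 with a log10 adjusted p of -193 in the same authors' table. The actin pseudogene Gm12715 fell by 1.06 and Gm21738 by 1.25. Among coding genes, 4930453N24Rik, described as the homolog of C3orf38, fell by 0.625, and 4930544G11Rik, described as the small GTPase RhoA, fell by 0.716 over a peak of 987 bases. 1700001J11Rik, a transcribed pseudogene described as the ubiquitin ligase RNF19A, fell by 0.873 in the authors' ClpP table, and its other 3 rows, of which 1 overlaps this one, fell by 0.524 to 0.736. Of the lncRNAs, 1700001L05Rik fell by 0.681 over a peak of 4 blocks while 1700008K24Rik stood at -0.741.

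Of the 8 higher calls of smallest adjusted p in ClpX cKO, the first was Gm26917, which rose by 0.495 on the log2 scale with a log10 adjusted p of -303. Others were weakly enriched peaks on copies of ribosomal protein genes and on a histone-like gene. By the authors' ClpX table Gm15427, described as ribosomal protein L18a, stood at a log2 fold change of 2.96 with a fold enrichment of 1.24; Gm11478, described as L13a, stood at 1.56 with 1.81; and Gm4149, described as L37a, stood at 1.46 with 1.27. Gm44335 on chromosome 9, described as a histone H2A, stood at 2.41 with a fold enrichment of 1.35 in the same authors' table. Peaks described as any ribosomal protein numbered 72, with 19 higher and 4 lower calls in ClpX cKO, 31.9% called where 20.1% of all peaks were; in ClpP cKO it was 5 and 5 of 77, 13% where 19.6% of all peaks were. Of the 23 called in ClpX cKO, none shared a base with another gene's peak. Reads of such a copy and of its functional gene can be alike, and the sources used here do not say how the authors placed reads that fit several loci. The actin pseudogene Gm12715 stood at 0.869 with a fold enrichment of 3.23. The coding genes Gm5617, described as the homolog of C11orf71, and 1700013G24Rik stood at 1.25 and 1.52 in the authors' ClpX table. The lncRNA 4933414I15Rik stood at 1.01 over a peak of 1456 bases.

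The lower calls in ClpX cKO were led by repeats and small nuclear RNAs, the RNA parts of the splicing machinery. Gm10800, Gm10801, Gm10718 and Gm10717 fell by 2.39, 3.81, 2.62 and 5.05 on the log2 scale in the authors' ClpX table. These genes and their neighbours lie in stretches of chromosomes 2 and 9 that are known to be rich in satellite repeats, a grouping made after the values were seen. In ClpX cKO all 13 peaks there had a negative log2 fold change, with a median of -2.69, and 5 were called lower. In ClpP cKO 10 of 14 were called lower and none higher, with a median of -0.891. Reads of repeats can fit several loci, and the sources used here do not say how such reads were placed. These satellite peaks may therefore not be separate observations. Their median peak log10 p was -122 and -116, in the strongest class of support. In that class 15.4% (ClpX) and 42.2% (ClpP) of the peaks on predicted and uncharacterised genes were called lower. Among small nuclear RNAs, Gm25939 on chromosome 1 stood at -0.504 in the authors' ClpP table and -0.513 in the authors' ClpX table, with a fold enrichment of 1.32 and 1.49. Gm22973 on chromosome 12 stood at -0.348 and -0.697, Gm25360 at -0.463 in the ClpX comparison, and Gm25813 on chromosome 8 at -2.19 in the ClpX comparison and at 0.0754, not called, in the ClpP comparison. Gm26316 was called lower in ClpP cKO at -0.534 and not in ClpX cKO at -0.481. Of 4 small nuclear RNA peaks in the ClpP and 6 in the ClpX comparison, 3 and 4 were called lower and none higher. Over all peaks 12.8% and 5% were called lower and 6.74% and 15.1% higher, so no higher call among so few says little. The limit on reads that fit several loci can hold for small nuclear RNAs too. Beyond repeats, Gm9833, a pseudogene described as myelin expression factor 2, fell by 2.24 with a fold enrichment of 32.3 by the authors' ClpX table.

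The most enriched peaks were not among the called ones. In the authors' ClpP table Gm47381 led with a fold enrichment of 109, followed by the lncRNAs 4930471M09Rik (91.9) and Gm38505 (90.4), the pseudogene Gm8188 (84.2) and the lncRNA 4930423M02Rik (79.6). The authors' ClpX table was led by 4933434M16Rik with 183, followed by 4930435N07Rik (129), Gm6039 (117), Gm9937 (94) and Gm18336 (86.3). None of these 10 was called, although 4930471M09Rik stood at 2.47 and Gm9937 at -3.01. Of all peaks on predicted and uncharacterised genes with an enrichment above 32, 12 of 151 (7.95%) were called in ClpP cKO. In ClpX cKO it was 17 of 121 (14%). With shares that low, no call among 10 peaks says little. Of called peaks, the most enriched in the authors' ClpP table were Gm371 on the X chromosome, described as a homolog of germ cell-less, with a fold enrichment of 78.9 and a log2 fold change of -1.71, and Gm38300 with 77.5 and -1.03. Gm42752 had 57.4 and stood at 3.30 there, and 4921539E11Rik, described as the homolog of C1orf141, had 33.7 and 2.38. In the authors' ClpX table Gm14822 had 49.6 and 3.36, and the lncRNAs 4930423M02Rik and 4933416O17Rik had 47.9 with -2.35 and 43.0 with -2.66. The same 4933416O17Rik was called lower in ClpP cKO too, at -1.14 with a fold enrichment of 31.2.

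Peaks of both tables that share bases on the same strand formed 2828 pairs among these genes, 529 with the same ends. Of them 54 were called higher in both knockouts, 56 lower in both, 86 lower in ClpP cKO and higher in ClpX cKO, and 3 the other way; 285 were called in ClpP cKO alone, 226 in ClpX cKO alone and 2118 in neither. Over all 18872 pairs the numbers were 419, 506, 760, 8, 2363, 2195 and 12621. Both comparisons rest on the same WT libraries, so a high or low WT value moves both log2 fold changes of a pair together. Peaks without a partner in the other table made up 27.4% of these peaks in the ClpP comparison, with 65 higher and 21 lower calls, and 20.7% in the ClpX comparison, with 121 and 6, so 8.04% and 17.2% of them were called. Of the other genes' peaks 20.7% and 20.2% had no partner, with 489 higher and 91 lower calls (13.9%) and 711 and 26 (18.1%), the same tilt to higher calls.

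Of the 54 pairs called higher in both, 25 were pseudogenes, which made up 18.7% of all pairs of these genes, 13 were coding, 15 had no RefSeq entry and 1 was an lncRNA, a kind that made up 30.3% of the pairs. Of the 15 without an entry, 11 share bases with another gene's peak. Among the 8 that share no base and rank first by the larger of their 2 adjusted p-values, Gm15720 stood at 1.05 in the authors' ClpP table and 1.40 in the authors' ClpX table, Gm10297 at 0.475 and 1.04, and Gm4204 at 0.705 and 0.971. Gm19221, described as a regulatory subunit of protein phosphatase 2A, stood at 1.39 and 1.69, Gm11889, described as the splicing factor LUC7L2, at 1.38 and 1.37, and Gm9517, described as the ankyrin protein ANKRD12, at 1.72 and 1.65. Gm6542, described as the proteasome subunit alpha 4, stood at 1.23 and 1.42 by the same authors' tables. Gm42918, whose stretch beside Trafd1 is printed above, had neither a protein description nor a RefSeq entry and stood at 0.722 and 1.25. Of the 56 pairs called lower in both, 18 were lncRNAs, 21 had no RefSeq entry, 9 were coding, 6 were pseudogenes and 2 were small nuclear RNAs. The 8 that rank first in the same way were the satellite genes Gm10800, Gm10718 and Gm10717, the small nuclear RNAs Gm25939 and Gm22973, Gm21738 (-1.25 and -3.27), Gm9800 (-0.864 and -0.963) and the lncRNA 1700029M20Rik. The last peak of 1700029M20Rik, at its 3′ end with a fold enrichment of 17.4 and 19.3, stood at -0.639 and -0.566, while another peak of that lncRNA, with a fold enrichment of 2.70, was called higher in ClpX cKO at 1.18. Peaks called in both directions within 1 gene occurred in 14 of these genes in each comparison.

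Pairs called in opposite directions were led by Gm26917, which stood at -0.422 in the authors' ClpP table and 0.495 in the authors' ClpX table over the same 271 bases. The actin pseudogene Gm12715 stood at -1.06 and 0.869, and the lncRNA 1700008K24Rik at -0.741 and 0.636. All 3 had fold enrichments between 1.58 and 3.23. Whether the knockouts differ from each other at these peaks was not tested, since no fit across both was possible.

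**Figure D4:**
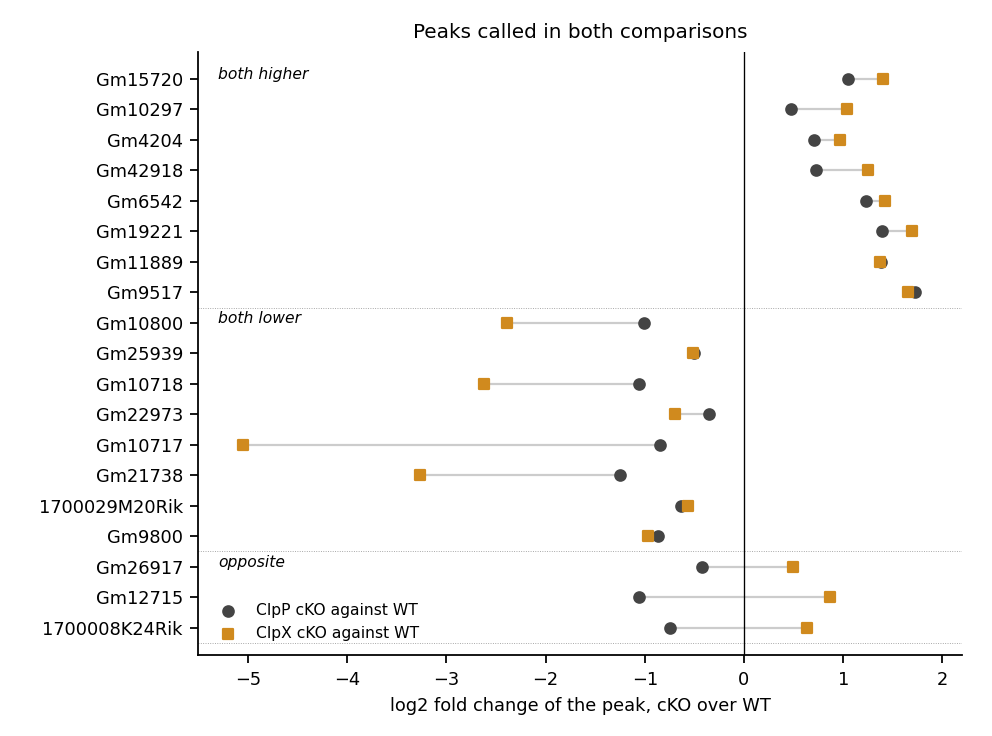
Log2 fold change against WT of the 19 paired peaks named by rule, ClpP cKO as circles and ClpX cKO as squares, with no error since each group is 1 library. Gm10717 stands at -0.843 and -5.05, and the 3 peaks called in opposite directions lie on both sides of 0.

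A pseudogene peak could be set beside the gene its protein description names, in 520 of 716 cases in the authors' ClpP table and 470 of 651 in the authors' ClpX table. Across these pairs of loci Pearson's r of the log2 fold changes was 0.11 and 0.13, a description across genes that share libraries. In ClpP cKO both were called higher in 13 cases, both lower in 21 and opposite in 17; the pseudogene alone was called in 49, the named gene alone in 143 and neither in 277. In ClpX cKO the numbers were 45, 3, 12, 48, 127 and 235. The named gene's peak was thus called in 194 of 520 and 187 of 470 cases, where 19.6% and 20.1% of all peaks were. Each case took 1 peak of a named gene that can have several, and how it is picked can move that share. The share is therefore not of like kind with that of all peaks. These cases rest on 339 and 326 named genes, so 1 gene can count more than once. Whether the named genes as such are called more often was not tested. The examples that follow were chosen after their values were seen. Of 3 genes described as the RING ubiquitin ligase RNF19A, 2 had peaks called lower in ClpP cKO. In ClpX cKO the 8 peaks so described had 2 higher calls and 1 lower. By the authors' ClpP table the copy 1700001J11Rik stood at -0.873, Gm7444 at -0.64 and Rnf19a itself at -0.813. Gm5841 and Usp1, a deubiquitinase of DNA repair, stood at -0.822 and -0.536, and Gm16425 and Larp1, an RNA-binding regulator of ribosomal protein mRNAs, at -1.50 and -1.39 in the same authors' table. In the authors' ClpX table Gm11478 stood at 1.56 beside Rpl13a at 0.958, Gm10120 at 1.73 beside Snrpd2, a core protein of small nuclear ribonucleoproteins, at 1.60, and Gm9795 at 3.25 beside Stard6 at 1.10. Others parted. Gm9042 had 4 peaks called higher in ClpP cKO, from 1.07 to 1.56, beside Ik, a splicing factor, at -0.724, and Gm13456 stood at 0.491 beside Eef1a1, a translation elongation factor, at -0.664 by the authors' ClpX table.

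**Figure D5:**
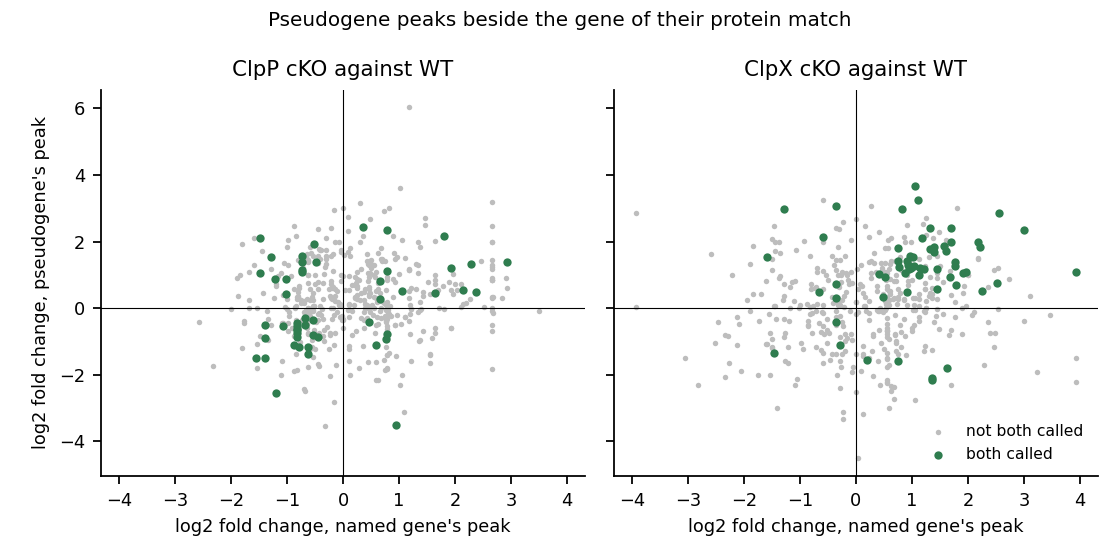
Log2 fold change of each pseudogene peak against that of a peak of the gene its protein description names, 520 and 470 points; green points are called on both axes. In the ClpX comparison 45 green points lie in the upper right, where both were called higher.

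Part of these peaks cannot be given to 1 gene. In the ClpP comparison 17.9% of them shared bases with a peak of another gene, against 7.11% of the other genes' peaks, and in the ClpX comparison 20.7% against 7.55%. Peaks that shared bases with a named gene's peak numbered 591 and 640, and in 81.4% and 84.5% of these at least 50% of the peak was shared. Where both were called they were called alike: both higher 15 and both lower 103 in ClpP cKO, both higher 107 and both lower 24 in ClpX cKO, and opposite 0 in either. The peak on the unnamed gene alone was called in 19 and 25 cases and the named gene's alone in 60 and 56. Of them 397 and 427 lay on the other strand than their partner. The sources used here do not say whether the libraries keep strand, and without it reads of overlapping genes on opposite strands cannot be told apart. Examples chosen after their values were seen show near equal values. Gm28635 and Ctnnd1, an adhesion protein of the catenin family, stood at -1.42 and -1.41 in the authors' ClpP table and share 626 bases on the same strand. Gm50253 and Zbtb9 stood at -1.41 and -1.44 there, and Gm12992 and Srsf4, a splicing factor on the other strand, at 1.34 and 1.34 in the authors' ClpX table. Gm26657 and Actl7b, an actin-like protein of spermatids on the other strand, moved together in both, at -0.632 and -0.635 in the authors' ClpP table and at 0.841 and 0.837 in the authors' ClpX table. Gm44341 and Gm44454, whose descriptions are histones, stood at 2.04 and 2.17 in the authors' ClpX table on the strand opposite to Hist1h2al at 1.97 and Hist1h2ak at 1.66. Of 15 peaks with a histone description 7 were called higher in ClpX cKO, and of the 5 of them that share no base with another gene's peak 1 was, Gm44335. In ClpP cKO the 8 such peaks had 0 higher and 3 lower calls, none of these on the 4 that share no base. Without peaks that share bases the share called fell to 13.1% in ClpP cKO and 13.5% in ClpX cKO.

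These peaks touched the start of a coding gene on the opposite strand more often than the other genes' peaks did. Of the peaks, 173 (4.44%, 3.81 to 5.13) in the ClpP comparison and 200 (5.61%, 4.88 to 6.42) in the ClpX comparison touched such a window, against 1.23% (1.08 to 1.39) and 1.62% (1.45 to 1.80) of the other genes' peaks. The share was 6.01% and 7.78% for lncRNAs and 7.19% and 8.93% for genes with no RefSeq entry, but 0.131% and 0.434% for pseudogenes. Their calls were 1 higher and 41 lower in ClpP cKO (24.3%) and 26 higher and 8 lower in ClpX cKO (17%), beside 19.6% and 20.1% of all peaks. The other genes' peaks at such windows had 12 higher and 40 lower of 249 (20.9%) and 49 higher and 9 lower of 325 (17.8%). Leaving out peaks that share bases with another gene's peak left 114 and 127, with 1 higher and 15 lower, and 14 higher and 4 lower. 2610306M01Rik beside Aak1, whose stretch with 4 GGAC is printed above, fell by 1.07 in the authors' ClpP table with a fold enrichment of 17.7, and stood at -0.631, not called, in ClpX cKO. 4732416N19Rik beside Ergic2 fell by 1.16 and by 1.62, called in both. 3110070M22Rik beside Tmem267 fell by 0.546 in the authors' ClpP table and stood at 0.251, not called, in ClpX cKO. Gm12184 beside Trim7 was called lower in ClpP cKO at -1.59 and higher in ClpX cKO at 1.77, with a fold enrichment of 2.49 and 32.9, so the same stretch was ranked very differently in the 2 tables.

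Along the genes, the peaks on coding members lay less far to the 3′ end than those of named coding genes. Their median position was at 0.73 and 0.69 of the gene span, with 43.7% and 40.2% of the peaks in the last 20%, against 0.84 and 0.83 and 55.3% and 53.6% on other coding genes. Peaks of lncRNAs had medians of 0.63 and 0.57, as lncRNAs under other names had (0.64 and 0.57). Peaks of pseudogenes were spread over the gene, with medians of 0.45 in both tables, on genes whose median span was 1560 bases in the ClpP comparison. The span counts introns. For peaks on coding members its median was 14000 and 13500 bases, and for those of other coding genes 33100 and 30500. Whether position differs between coding genes of like span was not tested. Within the span of a named coding gene on the same strand lay 10.1% and 11.1% of all peaks on predicted and uncharacterised genes, and on the other strand only 18.2% and 19.2%. For lncRNAs the latter was 25.1% and 25.4%.

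These names crowd on the Y chromosome. There they held 29 of 41 peaks in the ClpP comparison (70.7%) and 22 of 34 in the ClpX comparison (64.7%), and 26 and 19 of the Y peaks were described as Ssty1, a multicopy testis gene of the long arm that is transcribed in spermatids. None of these Y peaks was called, in copies so alike that reads cannot be assigned with certainty. Their median peak log10 p was -4.17 (ClpP) and -3.73 (ClpX), at the edge of the weakest class of support and within it. In that class 1.58% and 2.36% of the peaks on predicted and uncharacterised genes were called, so no call here says little. Of the other genes' 12 Y peaks in each comparison, 0 and 1 were called. On the X chromosome the predicted and uncharacterised genes held 158 of 722 peaks (21.9%), with 9 called higher and 6 lower, and 136 of 667 (20.4%), with 16 and 3. The share called was 9.49% and 14%, beside 9.4% (7.12 to 12.1) and 11.1% (8.57 to 14.1) of the other genes' X peaks.

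Calls varied between multicopy families, beside 19.6% (ClpP) and 20.1% (ClpX) of all peaks called. In ClpX cKO 31.9% of the 72 peaks described as any ribosomal protein were called, and 46.7% of the 15 described as any histone. Their median peak log10 p was -8.2 and -25.5, in the middle and the second strongest class of support. There 16% and 24.7% of the peaks on predicted and uncharacterised genes were called. Of the 5 histone peaks that share no base with another gene's peak, 1 was called. Other families had few calls. The homologs of C2orf78, all on chromosome 7, had 31 peaks with 2 called lower in ClpP cKO, and 33 with 1 called higher in ClpX cKO. Peaks described as Zfp431 (31 and 13), as the chromatin remodeller SMARCA5 (19 and 9, all on chromosome 4) and as the scaffold protein DLG5 (16 and 12) had no call. Peaks described as an open reading frame of the LINE-1 retrotransposon had 2 lower of 39 in ClpP cKO and 1 higher and 1 lower of 33 in ClpX cKO. Zinc finger proteins, mostly DNA-binding repressors, had 4 higher and 7 lower of 166 (6.63%) in ClpP cKO and 3 higher and 12 lower of 137 (10.9%) in ClpX cKO. In the ClpP comparison the median peak log10 p was -5.11 (C2orf78), -4.86 (Zfp431), -4.48 (SMARCA5), -4.57 (DLG5), -4.63 (LINE-1) and -6.29 (zinc fingers). All lay in the second weakest class of support, where 6.72% of the peaks on predicted and uncharacterised genes were called. In the ClpX comparison these medians ran from -3.91 to -5.99, in the 2 weakest classes, where 2.36% and 6.49% were called. In contrast, peaks described as uncharacterised proteins had 30 higher and 51 lower of 377 (21.5%) and 61 higher and 18 lower of 358 (22.1%), shares near those of all peaks.

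The genes with most peaks differed in their calls. 4932415D10Rik on chromosome 10, described as C2orf16, had 12 rows in the authors' ClpP table, some of them overlapping, of which 7 were called higher, from 0.548 to 1.89. Among the 7, the rows at 0.756 and 0.764 cover nearly the same bases. In the authors' ClpX table it had 15 rows and none was called. 4932431P20Rik on chromosome 7, described as the WD repeat protein WDR87, had 10 and 9 rows with none called and a fold enrichment of up to 71.2. Gm884 on chromosome 11, described as LRRC37A3, had 11 rows in the authors' ClpX table, of which 2 were called higher at 2.08 and 1.30, and 8 in the authors' ClpP table, of which 1 was called higher at 0.529. Gm50166, described as a retroviral Gag-Pro-Pol polyprotein, had 9 rows in the authors' ClpP table and 2 were called higher at 1.81 and 1.06, and 7 in the authors' ClpX table with none called.

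Rik names from clones of adult testis were as weakly called as other Rik names in ClpX cKO, 13.2% of 908 peaks (11.1 to 15.6) against 13.9% of 538 (11.1 to 17.2). In ClpP cKO they had 16.7% of 1012 peaks (14.5 to 19.1), with 43 higher and 126 lower, against 12.9% of 567 (10.2 to 15.9), with 23 higher and 50 lower. Of the 61 genes matched to another symbol through a synonym, few belong to the groups looked at. Such a match need not be the same gene. Gm26657 matched Actl7b and 4921520N01Rik matched Hdgfl1, although the peaks under the paired names lie on opposite strands. Their calls are included in the counts below. The groups of cilium and flagellum genes held Cfap20dc and Iftap, with 3 peaks in each comparison and no call, and that of mitochondrial symbols held only the pseudogenes Mrpl27-ps and Ndufa12-ps, with 1 and 2 peaks and no call. No symbol fell in the testis-named, membrane protein and meiosis groups, which go by the listed symbols and miss genes of these functions under other symbols. Of the rest, ClpP cKO had 4 higher and 14 lower calls among 94 peaks, and ClpX cKO 21 higher and 4 lower among 90, beside 19.6% and 20.1% of all peaks called. Among these, 2310009A05Rik, now Pigbos1, a microprotein of the outer mitochondrial membrane, stood at 2.26 in the authors' ClpP table and -1.89 in the authors' ClpX table. 1700021F05Rik, now Mtres1, a mitochondrial transcription rescue factor, stood at 0.32, not called, and -1.36. Gm4969, now Bhmg1, a regulator of entry into meiosis, had 2 peaks called higher in ClpX cKO, at 2.12 and 1.89, and its 1 peak in the ClpP comparison was not called, at -0.83. These genes were chosen after their values were seen.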

How the data were processed

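Each row of the authors' deposited tables is a peak with its blocks and, per the file headers, its p-value. Further columns, per the file headers, are scores: this p-value and its adjusted form as log10. Per the file headers they also give a fold enrichment, a linear ratio of IP over input, and a log2 fold change of knockout over WT with the log10 of its p-value and adjusted p-value. Per the submitters' processing notes the genome was GRCm38 (mm10). For the aligner, peak caller, normalisation and strandedness: not given in the sources used here. Read counts were not used here, so depth is unknown.

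Peaks were selected by name, matched to RefSeq (GRCm38.p6) and compared by shared bases with bedtools 2.31.1, python 3.11.15, pandas 2.3.3 and scipy 1.17.1; figures were drawn with matplotlib 3.10.9. The deposited adjusted p-values lay within 0.05 on the log10 scale of a Benjamini-Hochberg adjustment over the table for 99.4% (ClpP) and 99.3% (ClpX) of peaks. With 1 library per group no test across samples was run. Counting steps were tested on simulated data. Pairs are best mutual pairs with at least 1 shared base on the same strand.

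Named peaks share no base with another gene's peak and are, per comparison: the 8 per direction of smallest adjusted p; the 5 of highest enrichment and the 3 called per direction of highest enrichment; the 2 called of smallest adjusted p per kind; the 3 genes with most peaks; up to 8 pairs called alike per direction and 3 called oppositely. Members and lists were chosen with earlier results of these data known; other peaks named, the satellite grouping and the alternatives without those stretches or with 1 row per stretch were chosen after seeing the data. Alternatives to the adjusted p, enrichment, shared bases, peaks per gene, scaling and name rule are given at the end.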

Additional observations from a re-analysis of the deposited data

Results flagged for a closer look

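At 89 of the 2828 paired peaks the calls ran in opposite directions in the ClpP and ClpX comparisons. Over all 18872 pairs it was 768, a somewhat larger share. Of the 89, 86 were lower in ClpP cKO and higher in ClpX cKO, as were 760 of the 768. By rank of adjusted p the first were Gm26917, at a log2 fold change of -0.422 in ClpP cKO and 0.495 in ClpX cKO, Gm12715, at -1.06 and 0.869, and 1700008K24Rik, at -0.741 and 0.636. The difference between the knockouts was not tested, each value rests on 1 IP and 1 input library per genotype, and both comparisons use the same WT libraries.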

How the results depend on the processing

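With an adjusted p under 0.01 the share of peaks called was 10.2% in ClpP cKO and 10.8% in ClpX cKO, and of the called 30.7% and 80.3% were higher. Without peaks that share bases with another gene's peak 13.1% and 13.5% were called; in ClpP cKO 41.1% of these were higher, and the median log2 fold change in ClpX cKO was -0.019. With 1 peak per gene, that of smallest p, 17.3% and 18.7% were called, as picking the smallest p raises the share; with the most enriched peak per gene the median fold enrichment was 10.7 and 11.1. With a fold enrichment of at least 2, 14.1% were called in ClpX cKO. With each table's median subtracted 19.6% were called in ClpX cKO and 40.9% and 43.9% of the called were higher, with a median log2 fold change of 0.011 and -0.200. The errors used in that step were too small for peaks with a very small log2 fold change, so its calls are not reliable. Clone names added to the rule (14.7% and 15.4%), the satellite-rich stretches left out (14.4% and 15.4%) and 1 row per stretch (14.6% and 15.6%) moved the share called by less than its interval. Pairs that share at least 50% of each peak numbered 2620. Of the named peaks 7 were no longer called under 0.01 and 8 were newly called with the median subtracted, under the limit given for that step. No paired analysis was possible because each group holds 1 library. No library could be left out for the same reason, and depth, which limits what could be called, is unknown. Sites without a peak in either table are not analysed here.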
